A study of Mus musculus with 18 samples.

Results

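The mouse mitochondrial genome carries 37 genes, and all of them are listed in the expression table of a series on mouse ear cartilage. They were taken as the rows whose symbol starts with mt-, which gave 37 of 46983 genes. These are 13 mRNAs, 2 ribosomal RNAs (mt-Rnr1 and mt-Rnr2) and 22 transfer RNAs. The series profiled lipochondrocytes, cartilage cells that store lipid, from the ear cartilage plate at postnatal days 8, 10, 13, 21 and 33 (P8 to P33), and adipocytes from inguinal fat at P33. Each of the 6 groups had 3 libraries, 18 in all. Per the labels, the mice of all groups, the adipocyte mice included, had the genotype Wnt1-Cre2;TdTomato on a C57BL/6 background. P8, P10 and P13 cells were freed with collagenase and sorted through a gate for high TdTomato, a fluorescent reporter that Wnt1-Cre2 switches on in neural crest and its descendants. At P21 and P33, and for the adipocytes, the fraction that floated after a spin of the digested tissue was used instead. The labels do not say that libraries of a group came from separate animals, so p-values measure only the spread between these libraries, which may be technical.

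The mitochondrial genome is a small circle that encodes core subunits of complexes I, III and IV of the respiratory chain and of the ATP synthase (complex V), together with the rRNAs and tRNAs that its own ribosomes use. Both strands are copied into long transcripts, which are cut at the tRNAs to free the mRNAs and rRNAs. All other subunits, all of complex II, and the proteins that copy, cut, stabilise and translate mitochondrial RNA come from nuclear genes. Cartilage is known for a largely glycolytic metabolism, and adipocytes use mitochondria for fatty acid oxidation and for the citrate that feeds lipid synthesis.

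Of the mRNAs, 7 encode subunits of complex I (mt-Nd1 to mt-Nd6 and mt-Nd4l), 1 of complex III (mt-Cytb), 3 of complex IV (mt-Co1 to mt-Co3) and 2 of the ATP synthase (mt-Atp6 and mt-Atp8). On chromosome 1 of mm10, between positions 24611535 and 24616197 on the minus strand, GENCODE M21 annotates 7 pseudogenes that are near-identical copies of stretches of these genes, and all 7 have rows of their own in the table. In 5 of them no base differs from the mitochondrial gene over the aligned stretch, and in the other 2 a single base differs. The ends of a pair of them are shown because they show how little separates the rows. The start of mt-Nd3 (chrM:9459-9498, plus strand) and of its copy Gm28438 (chr1:24613080-24613119, minus strand) differ by T3C, counted from 1 at the first base of mt-Nd3, and the capital marks that base:
mt-Nd3: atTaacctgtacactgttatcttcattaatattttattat
Gm28438: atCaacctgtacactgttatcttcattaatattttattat
The end of mt-Co3 (chrM:9350-9390, plus strand) and of Gm28437 (chr1:24613189-24613228, minus strand) are the same run, apart from the final T of mt-Co3, in capitals, which lies outside the annotated copy:
mt-Co3: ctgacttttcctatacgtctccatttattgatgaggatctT
Gm28437: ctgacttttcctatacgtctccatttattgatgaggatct
These sequences are from the GENCODE M21 transcripts of GRCm38. A fragment from inside such a stretch can be placed on either row, and how the authors placed it is not given in the sources used here.

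For 6 of these 7 genes the chromosome 1 row held part of the signal, and for most of them it held the larger part. FPKM, fragments scaled to gene length and library depth, were weighted by annotated gene length so that a row and its copy could be added. The length by which the authors divided is not given in the sources used here, so the weighted values are not fragment counts. Of the sum of both, the copy's row held 97.32% to 100% for mt-Nd4l, 92.84% to 98.56% for mt-Co3, 70.83% to 91.19% for mt-Nd3 and 68.89% to 90.9% for mt-Co2 over the 18 libraries. It held 54.51% to 71.48% for mt-Atp6 and 24.41% to 47.52% for mt-Co1, whose copy Gm29216 matches only a part of the gene. The seventh copy, Gm28439, equals the first 876 bases of mt-Nd4 and was listed at 0 in all 18 libraries. The mitochondrial rows of mt-Nd4l, mt-Co3, mt-Nd3, mt-Co2 and mt-Atp6 therefore list the smaller part of the signal of row and copy. Results are given below with and without the copies.

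**Figure D1:**
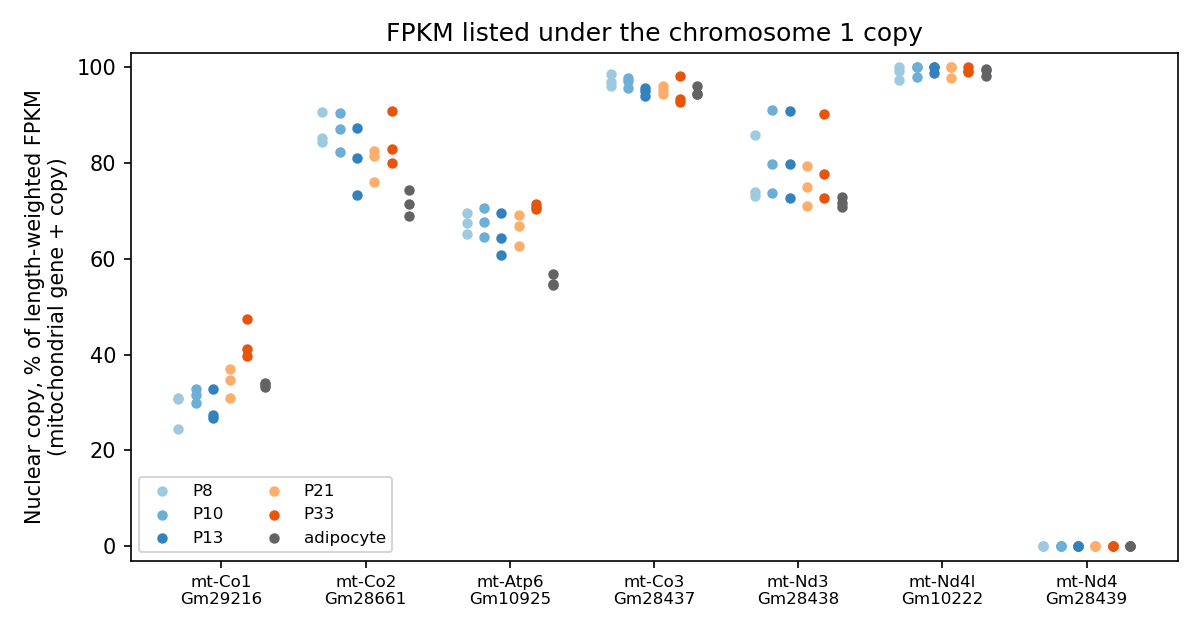
Share of the length-weighted FPKM of a mitochondrial gene and its chromosome 1 copy that is listed under the copy (y axis, percent), for the 7 genes with a near-identical copy (x axis); each point is a library, coloured by group. Points for mt-Nd4l and mt-Co3 lie at 92.84% or above, those for mt-Nd4 at 0, and for mt-Co1 the P33 points (39.7% to 47.52%) lie above the points of every other group.

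The share listed under the copy was not constant across groups. For mt-Atp6 it was 54.51% to 56.79% in adipocytes and 60.72% to 71.48% in the lipochondrocyte libraries, without overlap. For mt-Co1 it was 24.41% to 32.87% at P8 to P13, 30.94% to 36.96% at P21 and 39.7% to 47.52% at P33. For these genes a difference in the mitochondrial row can therefore differ from the difference in the sum of both rows.

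In depth, the libraries had 12461965 to 27640142 total reads with 73.19% to 84.44% aligned, and columns summed to 880622 to 1245105 FPKM. Fragment counts of single genes are not listed, which leaves their counting error unknown. The adipocyte libraries carried adipocyte markers (summed 90030 to 95810 FPKM over 8 genes, against 3.48 to 26.42 in lipochondrocytes), and the lipochondrocyte libraries carried cartilage markers (25700 to 54320 FPKM over 8 genes, against 4.61 to 6.94). In bulk RNA of this kind, fewer cells of a type and less RNA per cell cannot be told apart.

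The mitochondrial mRNAs spanned a wide range of levels within each library. In FPKM, which is per length, mt-Co1, mt-Nd1, mt-Atp8, mt-Atp6 and mt-Cytb made up the upper tier, at 3241.61 to 8243.97 in every lipochondrocyte library and 23521.81 to 31115.44 in every adipocyte library. The other 8 mRNAs lay below that tier in all 18 libraries, and mt-Nd4l was listed at 0 in 8 of them. The other 12 mRNAs were above 0 throughout. Leaving out mt-Nd4l, the highest mRNA of a library exceeded the lowest by 26.6 to 101 times in lipochondrocytes and 14.5 to 21.4 times in adipocytes. With the copies added the order changed: mt-Co3 averaged 16530 ± 2344 FPKM (SD, n = 3) at P33 in place of 873 ± 558, and mt-Nd4l averaged 2394 ± 613 in place of 15.8 ± 14.4.

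**Figure D2:**
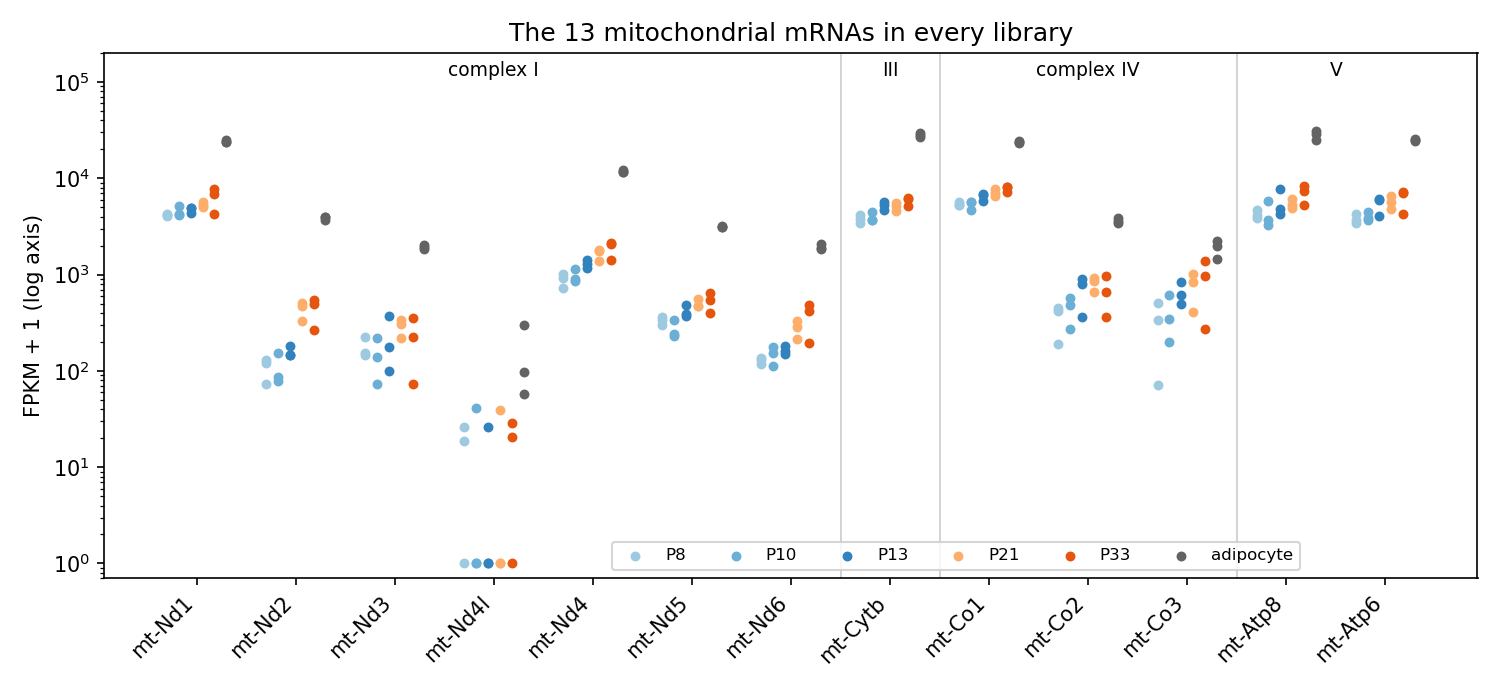
FPKM + 1 (y axis, log scale) of the 13 mitochondrial mRNAs (x axis, grouped by respiratory complex) as listed in the mitochondrial rows; each point is a library, coloured by group, with 3 per group. Adipocyte points lie above those of all 5 lipochondrocyte stages for each gene, and points at the bottom are the 8 libraries in which mt-Nd4l was listed at 0.

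P33 lipochondrocytes and adipocytes match in age and in isolation by flotation, and differ in cell type and tissue. Markers of other cell types, given further below, differ between them as well. So do the 8 genes of the response to tissue dissociation (summed 51.1 to 62.6 FPKM at P33 and 3446 to 3558 in adipocytes). All 13 mRNAs were listed lower in every P33 lipochondrocyte library than in any adipocyte library. The share of all genes with such a separation was not computed. Of the 13 mRNAs, 11 passed the test as lower and none as higher (limma on log2(FPKM + 1), Benjamini-Hochberg adjusted p below 0.05 over 13815 genes). Over all genes tested, 44.5% were lower and 24% were higher in this comparison. After median-of-ratios scaling, which brings the median of all genes to about 0, the shares were 34.1% and 30.7%. The count of 11 mRNAs is without that scaling. The median difference of the 13 mRNAs was -2.51 on the log2(FPKM + 1) scale, and that of all genes tested was -0.28. The adipocyte mean was 2.16 to 9.58 times the P33 mean, depending on the gene. With the copies added all 13 mRNAs passed as lower, with a median difference of -2.28.

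Among the complex I subunits, mt-Nd1, a membrane subunit beside the quinone site, was listed at 7653, 6926 and 4273 FPKM at P33 and at 24005, 24798 and 23790 in adipocytes. The third P33 library was the low one of its group, and the groups did not overlap. mt-Nd1 fell by 1.99 (SE 0.18, adjusted p = 1.07e-07 in limma), the smallest difference among the 7 complex I genes. mt-Nd2, one of the proton-pumping membrane subunits, was listed at 549, 496 and 264 FPKM at P33 and at 3675, 3924 and 3948 in adipocytes. It fell by 3.21 (SE 0.30, adjusted p = 1.61e-07 in limma). No near-identical nuclear copy of mt-Nd1 or mt-Nd2 was found.

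mt-Nd3, a small membrane subunit, was listed at 352, 224 and 71.7 FPKM at P33 and at 1954, 2016 and 1852 in adipocytes. Its P33 libraries spread widely, with the third again the lowest, and all lay far under the adipocyte ones. The difference of -3.44 (SE 0.54, adjusted p = 4.37e-05 in limma) became -2.80 (SE 0.28) with Gm28438 added. mt-Nd4l, the smallest complex I subunit, was listed at 28.1, 19.4 and 0 FPKM at P33 and at 96.3, 302 and 56.1 in adipocytes, and it did not pass (-3.82, SE 1.96, adjusted p = 0.0972 in limma). With Gm10222 added it was 2912, 2554 and 1717 FPKM at P33 and 15843, 16394 and 16145 in adipocytes, and the difference of -2.79 (SE 0.28, adjusted p = 3.57e-07 in limma) passed.

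mt-Nd4, another proton-pumping subunit, was listed at 2149, 2055 and 1412 FPKM at P33 and at 11751, 12154 and 11757 in adipocytes, and fell by 2.69 (SE 0.18). mt-Nd5, the most distal pumping subunit, fell by 2.58 (SE 0.18), from 3132 ± 39.9 FPKM in adipocytes to 533 ± 124 at P33. mt-Nd6 is the only mRNA encoded on the strand opposite to the other 12. It was listed at 482, 416 and 193 FPKM at P33 and at 1845, 2069 and 1884 in adipocytes, and fell by 2.51 (SE 0.27, adjusted p = 7.88e-07 in limma). mt-Nd6 shares 14 bases with mt-Nd5 on the opposite strand, and whether fragments were counted by strand is not given in the sources used here.

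mt-Cytb, the cytochrome b of complex III and the only member of that complex encoded in mitochondria, was listed at 6238, 6077 and 5104 FPKM at P33 and at 28108, 29399 and 26930 in adipocytes. The P33 libraries lay close together, and mt-Cytb fell by 2.28 (SE 0.14, adjusted p = 1.12e-09 in limma).

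The complex IV mRNAs encode the catalytic core of cytochrome c oxidase. mt-Co1 was listed at 8066, 8093 and 7217 FPKM at P33 and at 23522, 24360 and 23911 in adipocytes. It fell by 1.62 (SE 0.13, adjusted p = 1.65e-08 in limma), and by 1.41 with Gm29216 added. mt-Co2, which takes electrons from cytochrome c, was listed at 365, 652 and 975 FPKM at P33 and at 3852, 3560 and 3449 in adipocytes, and the difference of -2.55 (SE 0.42) became -1.60 (SE 0.21) with Gm28661 added. mt-Co3 was listed at 272, 973 and 1374 FPKM at P33 and at 2002, 1455 and 2211 in adipocytes. Its highest P33 library came close to the lowest adipocyte library, and mt-Co3 did not pass (-1.38, SE 0.69, adjusted p = 0.0887 in limma). With Gm28437 added it passed with a difference of -1.20 (SE 0.31, adjusted p = 3.17e-03 in limma). Without P33 replicate 3, which had the highest mt-Co3 value of its group, the mt-Co3 row passed as well, and the count of mRNAs called was 12.

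The ATP synthase mRNAs mt-Atp8 and mt-Atp6 overlap on the same strand, and how fragments in the overlap were counted is not given in the sources used here. The end of mt-Atp8 (chrM:7907-7969, plus strand) is shown because its capitals, the 43 bases at chrM:7927-7969, belong to both genes:
mt-Atp8: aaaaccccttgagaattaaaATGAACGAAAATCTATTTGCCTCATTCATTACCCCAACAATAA
mt-Atp6, part of the proton channel, was listed at 7140, 7008 and 4276 FPKM at P33 and at 25168, 25319 and 24167 in adipocytes. It fell by 2.06 (SE 0.21), and by 1.44 (SE 0.22) with Gm10925 added. mt-Atp8, a short stator subunit, was listed at 7429, 8244 and 5231 FPKM at P33 and at 28854, 31115 and 25167 in adipocytes, and fell by 2.05 (SE 0.25). In both genes the third P33 library was the lowest.

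**Figure D3:**
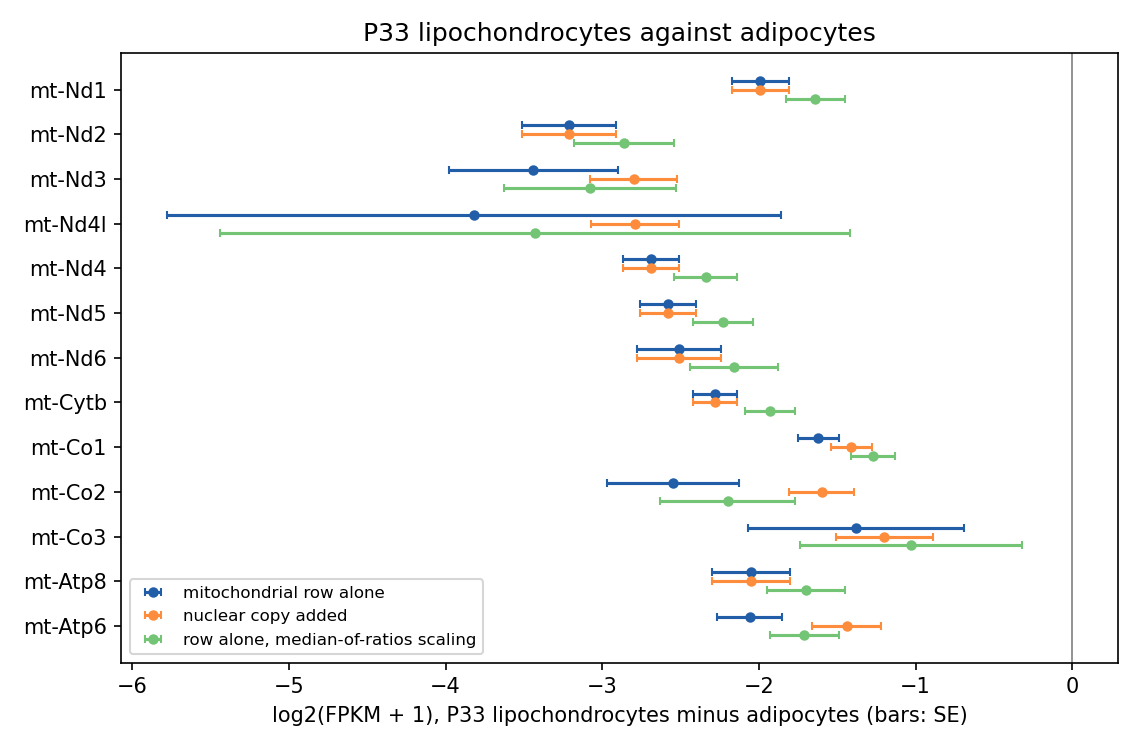
Difference in log2(FPKM + 1) between P33 lipochondrocytes and adipocytes (x axis; points are limma estimates, bars their SE) for the 13 mitochondrial mRNAs (y axis), for the mitochondrial row alone, with the nuclear copy added, and after median-of-ratios scaling. All points lie below 0; adding the copy moved mt-Nd4l from -3.82 to -2.79 and mt-Co2 from -2.55 to -1.60.

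The rRNA genes were lower at P33 too. mt-Rnr1, the RNA of the small ribosomal subunit, was listed at 3685, 2921 and 1668 FPKM at P33 and at 6093, 6314 and 6393 in adipocytes. It fell by 1.26 (SE 0.40, adjusted p = 0.0108 in limma), but was not called without P33 replicate 3 (-0.93, adjusted p = 0.0566) or after median-of-ratios scaling (-0.91, adjusted p = 0.0683), within a range of 2.20e-04 to 0.0683 over 15 alternatives. mt-Rnr2, the RNA of the large subunit, was listed at 6619, 5791 and 3602 FPKM at P33 and at 19712, 21960 and 20508 in adipocytes, and fell by 2.00 (SE 0.28, adjusted p = 1.43e-05 in limma). Per length, mt-Rnr2 was 1.8 to 6.05 times mt-Rnr1 in lipochondrocytes and 3.21 to 3.48 times in adipocytes. Whether the libraries were made by poly(A) selection or rRNA depletion is not given in the sources used here, and both steps bear on rRNA levels.

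Most tRNA rows were at or near 0. Of the 22 tRNA genes, 3 were listed at 0 in all 18 libraries (mt-Td, mt-Tr and mt-Ts2). Only mt-Ts1 was above 0 in all 18 libraries, mt-Te in 17 and mt-Tq in 12. In adipocytes 10 of 22 were above 0 in all 3 libraries, and these comprised 8 of the 8 on the minus strand (mt-Tq, mt-Ta, mt-Tn, mt-Tc, mt-Ty, mt-Ts1, mt-Te and mt-Tp) and 2 of the 14 on the plus strand (mt-Tv and mt-Tm). The strand split was noticed after the values were seen. The minus-strand tRNA genes lie opposite the strand that carries 12 of the 13 mRNAs, and fragments of the 2 strands cannot be told apart without knowing how strand was counted.

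The tRNA genes that carried the signal are shown whole, with the anticodon in capitals:
mt-Ts1: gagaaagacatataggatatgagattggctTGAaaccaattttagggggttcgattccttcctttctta
mt-Te: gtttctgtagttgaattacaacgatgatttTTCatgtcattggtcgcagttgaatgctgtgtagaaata
mt-Tq: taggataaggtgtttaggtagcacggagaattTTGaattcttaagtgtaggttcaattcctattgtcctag
mt-Ts1 (serine tRNA, chrM:6870-6938) shares 3 bases with the end of mt-Co1 on the opposite strand, mt-Te (glutamate tRNA) lies at chrM:14071-14139, and mt-Tq (glutamine tRNA, chrM:3772-3842) shares 3 bases with mt-Ti on the opposite strand.

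mt-Ts1 had the highest FPKM of all 37 genes in every adipocyte library. The same held in the lipochondrocyte libraries, except that mt-Rnr2 led in P8 replicate 2 and P10 replicate 2. At P33 mt-Ts1 was lower than in adipocytes by 2.04 (SE 0.21, adjusted p = 3.81e-07 in limma). It was listed at 15189, 15745 and 14548 FPKM at P33 and at 64755, 64062 and 58058 in adipocytes. mt-Te was listed at 221, 135 and 417 FPKM at P33 and at 3029, 3185 and 3655 in adipocytes. mt-Tq was listed at 0 in each P33 library and at 8797, 10242 and 8559 FPKM in adipocytes, without overlap. In the adipocyte libraries the values of the 69-base tRNA genes other than mt-Ts1 were whole multiples (within 0.02) of 37.87, 52.21 and 38.89 FPKM. mt-Te was at 80, 61 and 94 such steps. mt-Ts1 was left out of that check, and its values came to 1710, 1227 and 1493 steps after rounding. In the lipochondrocyte libraries too few of these genes were above 0, and no step was sought there.

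The remaining 9 tRNA genes that passed the filter on low values did so through the adipocyte libraries, so their lower calls follow from the filter in part and are given as values only. In adipocytes they ranged from mt-Th, at 44.2, 0 and 45.4 FPKM, to mt-Tc, the cysteine tRNA, at 719, 332 and 246. The 10 other tRNA genes did not pass. In all, 27 of the 37 genes were tested.

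As a share of the column sum, the 37 genes took 24.8%, 25.4% and 23.3% in the adipocyte libraries and 3.67% to 5.96% in the 15 lipochondrocyte libraries, without overlap. Group means were 4.30% ± 0.168 at P8, 4.18% ± 0.803 at P10, 4.99% ± 0.892 at P13, 4.83% ± 0.101 at P21, 5.10% ± 0.652 at P33 and 24.5% ± 1.08 in adipocytes (SD, n = 3). The P10 libraries alone ran from 3.67% to 5.11%, which spans the means of all 5 lipochondrocyte stages.

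The classes did not contribute alike. The 13 mRNAs took 2.53% to 3.19% of the column on average in the lipochondrocyte groups and 14.8% in adipocytes. The rRNAs took 0.616% to 0.941% and 2.53%. The tRNA rows took 0.746% to 1.28% in lipochondrocyte groups and 7.17% in adipocytes, and mt-Ts1 alone made up 5.85% of the adipocyte column. Since FPKM divide by length, such short genes weigh far more in a sum of FPKM than in fragments. Weighted by length, the tRNA rows came to 0.247% in adipocytes and to 0.02% to 0.0404% in the lipochondrocyte groups, and all 37 genes to 8.92% against 1.46% to 1.81%. Annotated lengths were used, so these are not shares of fragments. In adipocyte replicate 1 the lowest value above 0 was 44.18 FPKM for tRNA genes of 67 bases and 32.83 for those of 71 bases. That is a steeper fall than the annotated lengths give, so the weighted tRNA shares may be too high. With the 7 copies added, the length-weighted share was 12.7% in adipocytes and 2.20% at P8, 2.31% at P10, 2.59% at P13, 2.74% at P21 and 3.13% at P33. Among the 20 rows with the highest FPKM of a library, 9 were mitochondrial genes and 5 were chromosome 1 copies in each adipocyte library, against 0 to 3 and 3 in the lipochondrocyte libraries.

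**Figure D4:**
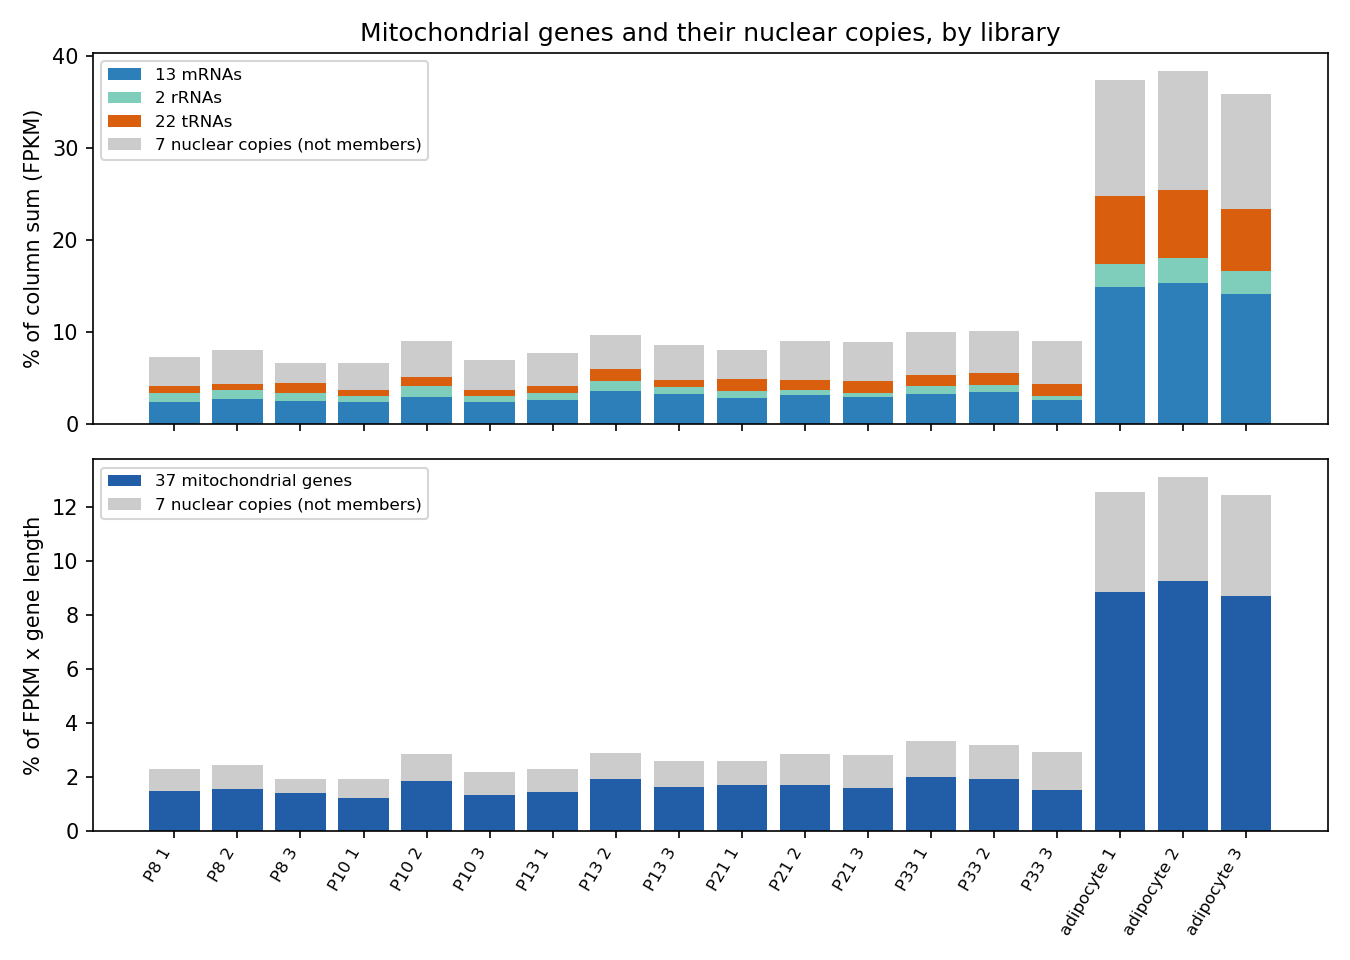
Upper panel: percent of the FPKM column sum taken by the 13 mRNAs, the rRNAs, the tRNAs and the 7 nuclear copies in each of the 18 libraries (stacked bars from 0). Lower panel: the same for FPKM weighted by gene length, for the 37 mitochondrial genes and the copies; adipocyte bars reach 12.4% or more and lipochondrocyte bars 3.31% or less.

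The earlier stages differ from the adipocytes in age and, up to P13, in isolation, so those factors and cell type cannot be told apart there. These comparisons share the adipocyte libraries with the P33 one and are not independent of it. The count of mRNAs called lower was 12 of 13 for P21, where 43.1% of all genes were lower and 24.5% higher. For P13 it was 12, with 54% of all genes lower and 17.8% higher, for P10 it was 13, with 58.9% and 16.8%, and for P8 it was 12, with 52.2% and 19.3%. No mitochondrial mRNA was called higher. After median-of-ratios scaling 33.6% to 35.8% of all genes were lower in these 4 comparisons and 30.1% to 33.2% higher. The counts and medians of the 13 mRNAs given here are without that scaling. The gene missing was mt-Co3 at P21 and P13 and mt-Nd4l at P8. Both passed with the copies added, when the count was 13 at each stage. The mt-Nd4l row, listed at 0 in many libraries, was called at P21, P13 and P10, but lost that call in 7, 4 and 6 of 15 alternatives. The median difference of the 13 mRNAs was -2.47 at P21, -2.51 at P13, -3.10 at P10 and -3.24 at P8, beside medians of all genes of -0.252, -0.557, -0.733 and -0.512. mt-Nd2 had the widest span: its adipocyte mean was 35.8 times the P8 mean, 36.7 times the P10 mean, 24.6 times the P13 mean, and 8.88 and 8.82 times the P21 and P33 means.

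Between neighbouring stages of lipochondrocytes few mitochondrial mRNAs changed. From P8 to P10 none of 13 was called (1.9% of all genes were higher and 9.14% lower, or 3.73% and 0.935% after median-of-ratios scaling), and none of the 13 had an unadjusted p under 0.05 in limma. From P10 to P13 only mt-Nd5 was called, as higher (18.6% of all genes were higher and 4.03% lower, or 8.4% and 8.99% after median-of-ratios scaling). mt-Nd5 was listed at 229, 336 and 242 FPKM at P10 and at 392, 479 and 373 at P13, so that the groups did not overlap. It rose by 0.64 (SE 0.18, adjusted p = 0.0185 in limma), but it was not called in 5 of 15 alternatives (adjusted p from 8.01e-03 to 0.226), median-of-ratios scaling among them. The median of the 13 mRNAs was 0.40 between P10 and P13 with all genes at 0.149. From P8 to P13 none was called in limma. Over all genes, 2.69% were higher and 1.52% lower, or 4.03% and 1.93% after median-of-ratios scaling. Of the 13, 4 had an unadjusted p under 0.05 in limma: mt-Nd4, mt-Cytb, mt-Atp6 and mt-Co2, all with higher means at P13. The share of all genes with such an unadjusted p was not computed.

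From P13 to P21, when the isolation changed from sorting to flotation, mt-Nd2 and mt-Nd6 were called higher. Over all genes, 36% were higher and 7.04% lower, or 15.9% and 16.7% after median-of-ratios scaling. mt-Nd2 was listed at 144, 181 and 145 FPKM at P13 and at 330, 467 and 503 at P21. At P8 and P10 it was at 71.9 to 151 FPKM, so all 9 sorted libraries lay below all 6 floated ones, the P33 libraries included. mt-Nd2 rose by 1.45 (SE 0.30, adjusted p = 1.48e-03 in limma) and was called in all 15 alternatives, with log2 differences of 1.00 to 1.63 (adjusted p from 8.21e-04 to 0.0270). mt-Nd6 was listed at 148, 179 and 160 FPKM at P13 and at 211, 288 and 325 at P21, and rose by 0.74 (SE 0.27, adjusted p = 0.0400 in limma). Its call was lost in 10 of 15 alternatives (adjusted p from 0.0247 to 0.470). The median of the 13 mRNAs was 0.19, below the 0.289 of all genes. After median-of-ratios scaling mt-Nd2 stayed higher, mt-Cytb was called lower (-0.49, adjusted p = 0.0321) and the median of the 13 mRNAs was -0.19, the opposite direction. Age and isolation cannot be told apart here. Summed markers of skeletal muscle, a tissue rich in mitochondria, were 88.9 to 588 FPKM at P21 and 26.1 to 38.8 at P13 over 11 genes, with 8 of the 8 tested higher. Other marker lists moved in the same comparison. Brown fat markers summed to 17.5 to 21.0 FPKM at P13 and 152 to 232 at P21 (4 of 7 higher). Macrophage markers summed to 3.27 to 3.92 FPKM at P13 and 16.4 to 27.2 at P21 (6 of 8 higher), and erythroid markers to 4.74 to 7.86 and 84.3 to 451 (4 of 5 higher). Fibroblast markers summed to 719 to 955 FPKM at P13 and 3358 to 7101 at P21 (3 of 7 higher and 2 lower), and the 8 genes of the response to tissue dissociation were all lower at P21 (median -6.35). The part of any of these lists in the mitochondrial differences was not tested.

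Among the tRNA rows, mt-Tq was listed at 61.1 to 277 FPKM in the 9 sorted libraries. In all 6 floated lipochondrocyte libraries it was at 0. It was called lower from P13 to P21 (adjusted p = 7.21e-09 in limma, called in all 15 alternatives with 1.90e-10 to 3.58e-04). The log2 difference of -7.17 was taken against values of 0, so its size depends on the pseudocount. It ranged from -10.49 to -6.90 over the alternatives. In so short a gene the sorted values may rest on few fragments, and fragment counts are not listed. In adipocytes the 69-base tRNA genes other than mt-Ts1 moved in steps of 37.87 to 52.21 FPKM. The adjusted p may therefore overstate the evidence. The floated adipocyte libraries had the highest mt-Tq values. mt-Ts1 rose from 7965, 11839 and 7785 FPKM at P13 to 13676, 12817 and 15623 at P21 (0.63, SE 0.21, adjusted p = 0.0229 in limma). That call was lost in 9 of 15 alternatives (adjusted p from 7.05e-03 to 0.536). The rRNA rows did not pass between any neighbouring stages.

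From P21 to P33 none of 13 mRNAs was called (2.87% of all genes were higher and 7.17% lower), with differences from -0.66 for mt-Nd3 to 1.31 for mt-Nd4l and no unadjusted p under 0.05 among the 13 in limma. P33 replicate 3 had the lowest value of its group for 11 of the 13 mRNAs, and without it mt-Nd1 and mt-Nd6 were called higher. The copy of mt-Co1, Gm29216, was listed at 9193, 12763 and 12920 FPKM at P21 and at 17680, 16735 and 20518 at P33, and rose by 0.67 (SE 0.18, adjusted p = 0.0307 in limma), while the mt-Co1 row had a difference of 0.14 (SE 0.13) and the sum of both rows did not pass (0.34, SE 0.13, adjusted p = 0.119 in limma).

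Within the summed FPKM of the 13 mRNAs, 5 of the 7 complex I mRNAs took a larger share in every adipocyte library than in any lipochondrocyte library. mt-Nd4 made up 7.43% to 7.72% of the sum in adipocytes and 3.26% to 5.31% in the 15 lipochondrocyte libraries. mt-Nd2 made up 2.33% to 2.59% against 0.325% to 1.49%. The others were mt-Nd3, mt-Nd5 and mt-Nd6, the last by a very narrow margin (1.168% to 1.265% against 0.4716% to 1.164%). Below that range lay only mt-Co1, at 14.9% to 15.7% against 19.2% to 23.9%. With the copies added, mt-Nd2, mt-Nd3, mt-Nd4, mt-Nd5 and mt-Nd6 were still above the lipochondrocyte range, joined by mt-Nd4l (5.97% to 6.17% against 2.29% to 4.05%) and mt-Cytb (10.3% to 10.7% against 7.02% to 8.95%), and mt-Co1 was below it by a narrow margin (13.4% to 13.7% against 13.7% to 19.1%). These shares sum to 100 within a library and carry no test.

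**Figure D5:**
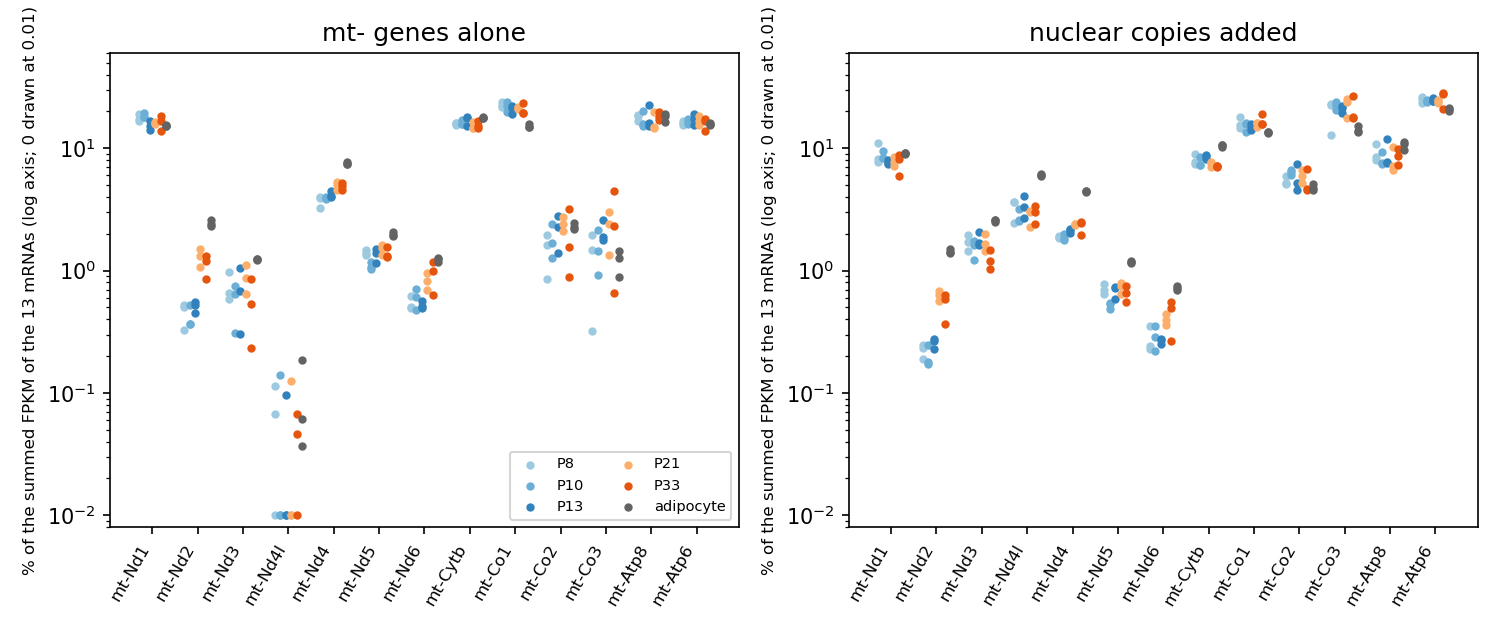
Percent of the summed FPKM of the 13 mitochondrial mRNAs taken by each (y axis, log scale, 0 drawn at 0.01) for the mitochondrial rows alone (left) and with the nuclear copies added (right); each point is a library, coloured by group. Adipocyte points for mt-Nd2, mt-Nd4 and mt-Nd5 lie above all lipochondrocyte points in both panels.

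Nuclear genes of the same respiratory complexes were lower at P33 than in adipocytes as well. Of 36 nuclear complex I subunits 30 were lower and none higher, with a median difference of -1.24, beside -2.69 for the 7 mitochondrial complex I mRNAs. Ndufs1, an iron-sulphur subunit of complex I, was at 9.64 ± 0.543 FPKM at P33 and 79.6 ± 2.85 in adipocytes (-2.92, SE 0.14). All 4 complex II subunits were lower (median -2.33): Sdha, its flavoprotein (-2.89, SE 0.09), Sdhb, Sdhc and Sdhd. Of 9 nuclear complex III subunits 7 were lower (median -1.73), led by Uqcrfs1, the Rieske protein, at 21.1 ± 1.77 against 246 ± 4.91 FPKM (-3.48, SE 0.10). Of 11 nuclear complex IV subunits 8 were lower (median -0.92) and of 15 nuclear ATP synthase subunits 10 were lower and 1, Atp5g1, higher (median -0.91), with Atp5b, the catalytic beta subunit, at 343 ± 58.6 against 2295 ± 95.9 FPKM. These lists kept medians below 0 under each scaling tried, and 44.5% of all genes were lower in this comparison. After median-of-ratios scaling 22 of the 36 nuclear complex I subunits were lower, beside 34.1% of all genes.

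Nuclear genes that make and handle mitochondrial RNA were in the main lower at P33 as well, beside 44.5% of all genes. Of the 10 genes for mitochondrial transcription 8 were tested and 6 were lower at P33 than in adipocytes, among them Tfb2m, which opens the promoter (3.74 ± 1.13 against 15.2 ± 2.34 FPKM, -1.79, SE 0.21), and Tfam, which packages mitochondrial DNA (3.62 ± 0.600 against 8.11 ± 1.97 FPKM, -0.97, SE 0.25). Polrmt, the RNA polymerase of mitochondria, did not pass (6.41 ± 0.446 against 9.52 ± 1.74 FPKM, adjusted p = 0.202 in limma). Of 11 RNA processing genes 10 were lower, with Elac2, which cuts tRNAs at their 3′ end, at -1.93 (SE 0.16) and Mtpap, the mitochondrial poly(A) polymerase, at -1.86 (SE 0.14). Of 13 genes for RNA stability and decay 10 were lower, with Lrpprc, which binds and stabilises the mRNAs, at 1.84 ± 0.217 against 7.81 ± 0.334 FPKM (-1.64, SE 0.14) and its partner Slirp at 51.6 ± 8.56 against 68.6 ± 5.89 FPKM (-0.41, SE 0.17, adjusted p = 0.0400 in limma).

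The counts that follow also stand beside 44.5% of all genes lower and 24% higher. Of 13 genes for mitochondrial DNA maintenance 10 were lower and 1, Polg2, higher, the lower ones including Mgme1, a nuclease of mitochondrial DNA (-1.50, SE 0.12). After median-of-ratios scaling 5 of the 12 genes then tested were lower in both the mitochondrial DNA maintenance and the mitochondrial RNA stability and decay lists, beside 34.1% of all genes. Of 8 nuclear regulators 5 were lower (Ppargc1a, Ppargc1b, Esrra, Gabpa and Gabpb1), with the coactivator Ppargc1b at 0.133 ± 0.0643 against 2.96 ± 0.0473 FPKM and Ppargc1a at 0.617 ± 0.153 against 2.23 ± 0.125 FPKM. Of 77 mitochondrial ribosomal proteins 64 were lower and 1, Mrpl52, higher (median -1.21), and of 16 tested aminoacyl-tRNA synthetases of 17 in the list 13 were lower and 1 higher. The higher one was Lars2, the leucine synthetase, listed at 3825 to 5275 FPKM at P33 and 1434 to 1470 in adipocytes (1.71, SE 0.31). The 16 other synthetases reached at most 6.97 FPKM in a lipochondrocyte library and 19.3 in an adipocyte library, so Lars2 stood far apart from them in level. Whether all fragments listed for Lars2 come from its transcripts was not tested, so its value may not be that of the synthetase mRNA.

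Across stages many nuclear genes of these lists were called. From P10 to P13, 22 of 36 nuclear complex I subunits and 50 of 77 mitochondrial ribosomal proteins rose and none fell, against 1 of 13 mitochondrial mRNAs and 18.6% of all genes. Fibroblast markers fell in 6 of 7 genes over the same days, with sums of 3289 to 4348 FPKM at P10 and 719 to 955 at P13, and their part was not tested. From P13 to P21, 28 nuclear complex I subunits rose and none fell, and 43 mitochondrial ribosomal proteins rose and 1, Mrpl35, fell, against 2 mitochondrial mRNAs and 36% of all genes. The difference between these counts was not tested. The counts depend on scaling: after median-of-ratios scaling they were 3 nuclear complex I subunits and 17 mitochondrial ribosomal proteins higher from P10 to P13, beside 8.4% of all genes. From P13 to P21 they were then 5 higher and 0 lower, and 5 higher and 6 lower, beside 15.9% of all genes higher and 16.7% lower. Ndufb7, an accessory complex I subunit, went from 24.2 ± 0.815 FPKM at P10 to 48.0 ± 0.274 at P13 and 132 ± 44.9 at P21. Mrps6, a small-subunit ribosomal protein, went from 28.9 ± 1.84 to 74.3 ± 7.04 and 331 ± 30.0 FPKM. Tfam passed neither from P10 to P13 (adjusted p = 0.0796 in limma) nor from P13 to P21 (adjusted p = 0.167 in limma).

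Markers of other cell types differed between the adipocyte and lipochondrocyte libraries, in both directions. Summed endothelial markers (8 genes) were 725 to 775 FPKM in adipocytes and 1.63 to 8.66 in lipochondrocytes, macrophage markers (8 genes) 752 to 815 against 2.27 to 59.3, and erythroid markers (5 genes) 962 to 1031 against 3.9 to 451. Markers of brown fat, whose cells are rich in mitochondria, summed to 432 to 458 FPKM over 7 genes in adipocytes, 97.1 to 104 at P33, 152 to 232 at P21, 17.5 to 21.0 at P13 and 3.22 to 7.06 at P8 and P10. Fibroblast markers (7 genes) summed to 5773 to 10910 FPKM at P33 and 430 to 438 in adipocytes, the opposite direction, with 3 genes higher and 2 lower at P33. Skeletal muscle markers were also higher at P33 in 7 of 8 genes tested, with sums of 29.5 to 235 FPKM against 30.4 to 33.9. Genes of the response to tissue dissociation (8 genes) summed to 10390 to 18120 FPKM in the sorted libraries, 51.1 to 119 in the floated lipochondrocyte libraries and 3446 to 3558 in adipocytes. The part of any of these in the mitochondrial differences was not tested.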

How the data were processed

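RNA of 18 libraries was sequenced. The submitters' processing notes name STAR 2.4.2a and mm10. The quantifier, annotation, strandedness and RNA selection: not given in the sources used here. The authors deposited FPKM per gene. Their deposited table of library statistics holds the read count of each library and the percent of its reads that were paired and aligned. Depth ran from 12461965 to 27640142 reads. FPKM give no counts per gene, so the precision of single values is unknown. All per-sample columns were used (0 unused), and 0 library pairs were identical.

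Members were the mt- rows. Members, gene lists, tests and the naming rule were chosen with earlier results of these data known. FPKM were changed to log2(FPKM + 1). Genes with at least 1 FPKM in 3 or more libraries (13815) were fitted with 6 group means in limma 3.58.1 (R 4.3.3, mean-variance trend, two-sided tests). Calls use a Benjamini-Hochberg adjusted p of 0.05 across these genes. The fit was tested on simulated data. Named were all members and, per list, up to 3 called genes with the largest change in 3 comparisons (P33 with adipocytes, P21 with P13, P13 with P10), plus Tfam, Polrmt, Lrpprc, Slirp and Ppargc1a; the text gives a part of these. Gm29216 was named after its values were seen. Of the identifiers, 98.9% are in GENCODE M21 (GRCm38), the source of coordinates, lengths and sequences. Transcripts were searched with blastn 2.17.0 (80% identity or more over 100 bases or more); copies with 99% identity over 90% of their length count as near-identical, and the other matches reached at most 4.98 FPKM. In fits, a copy's FPKM were added after weighting by length. Genes without a length, up to 7.02% of a column, were left out of length-weighted shares. Alternatives were pseudocount 0.1, no filter, median-of-ratios scaling, columns scaled to an equal sum, scaling without mt- genes, copies added, the 2 groups alone, a replicate block and each library left out. Python 3.11.15 and matplotlib 3.10.9 drew the plots.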

Additional observations from a re-analysis of the deposited data

How the results depend on the processing

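No called member reversed its direction under any alternative. The lower counts against adipocytes ranged from 11 to 12 (P33, P21, P13), 12 to 13 (P10) and stayed at 12 (P8) when single libraries were left out. From P10 to P13 the count of mRNAs called, 1, became 0 after median-of-ratios scaling and with only the 2 groups in the fit, 2 (mt-Cytb and mt-Nd5) with columns scaled to an equal sum or to the sum without mt- genes, and 0 to 2 with a library left out. It was 0 without P10 replicate 1, P10 replicate 3 or P13 replicate 2, and 2 without P10 replicate 2. From P13 to P21 the count of 2 became 1 (mt-Nd2) without the filter and under the same 2 scalings, and 1 to 2 with a library left out: 1 without P13 replicate 1, 2 or 3 or P21 replicate 2 or 3. From P21 to P33 the count of 0 was 0 to 2 with a library left out, 2 without P33 replicate 3. Scaling to the sum without mt- genes and copies, chosen after seeing the data, gave 2 and 1 for the first 2 of these comparisons. The cause was not tested.

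Of 133 calls on single members, 10 were lost after median-of-ratios scaling, 10 with only the 2 groups, 4 without the filter, 3 with pseudocount 0.1 and 2 under each other scaling. When each library was left out in turn, 700 results on these calls kept the call and 22 lost it. The 133 include calls on the 9 tRNA genes that passed the filter through the adipocyte libraries. Those calls follow from the filter in part, so their stability adds little. The labels' replicate numbers showed no clear pairing over all groups together: 13 of 45 same-numbered pairs correlated above 0.1 (range -0.168 to 0.306). Of 18 libraries, 8 correlated best with their own number. Pairs of P33 lipochondrocyte and adipocyte libraries were not looked at apart, so a pairing between them was not tested. With a replicate block the counts stayed at 11, 12, 12, 13 and 12 against adipocytes (P33, P21, P13, P10, P8) and at 0, 1, 0, 2 and 0 between stages (P10 with P8, P13 with P10, P13 with P8, P21 with P13, P33 with P21), and 133 calls kept their side of the threshold.

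The share of the column sum depended on its definition. In the order P8, P10, P13, P21, P33 and adipocytes, the 13 mRNAs alone took 2.53%, 2.56%, 3.19%, 2.95%, 3.15% and 14.8%. Without the tRNA genes the shares were 3.48%, 3.43%, 4.0%, 3.57%, 3.82% and 17.4%. Weighted by length they were 1.46%, 1.46%, 1.65%, 1.66%, 1.81% and 8.92%. With nuclear copies added they were 7.34%, 7.58%, 8.69%, 8.68%, 9.73% and 37.2%. With both, an alternative chosen after seeing the data, they were 2.20%, 2.31%, 2.59%, 2.74%, 3.13% and 12.7%. Adipocytes were highest under each definition.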
